A study of Homo sapiens with 8 samples.

Results

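The transcripts of 10 genes that write, read or remove repressive chromatin marks were followed in Hep3B cells, a human hepatocellular carcinoma line. They were taken by gene symbol and fall into 5 polycomb subunits (EZH2, EZH1, SUZ12, EED and JARID2) and 5 DNA methylation enzymes (DNMT1, DNMT3A, DNMT3B, UHRF1 and TET3). All 10 were found in both count tables, among 16169 genes listed in either. Total RNA was sequenced as 8 poly(A) libraries, 2 for each of 4 conditions. These were unedited Hep3B cells (genotype WT), Hep3B SOX4-/- cells edited with CRISPR/Cas9, Hep3B cells transfected with control siRNA, and Hep3B cells transfected with STAT6 siRNA. All were grown in MEM with 10% fetal bovine serum. The paper states that the SOX4-/- cells were kept in medium with puromycin, which it does not state for the other cells. SOX4 is a high-mobility-group transcription factor often raised in liver cancer, and STAT6 is the transcription factor that answers interleukin-4. The paper describes these RNA data as coming from both of its 2 knockout lines, but the labels do not name the line of each knockout library. Apart from these lines, nothing states that the paired libraries of a condition came from separate cultures, so each p-value measures only the spread between these libraries. The unedited and knockout libraries form 1 table and the siRNA libraries the other, so transfection and table cannot be told apart. The libraries held between 16266282 and 25353113 expected counts, that is, reads shared out by estimate among the transcripts they could come from.

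Polycomb repressive complex 2 adds methyl groups to lysine 27 of histone H3 and keeps developmental genes silent. Its catalytic subunit is EZH2 or the closely related EZH1, SUZ12 and EED are the partners without which neither works, and JARID2 helps to bring the complex to its sites. EZH2 is commonly raised in dividing and tumour cells, whereas EZH1 is the form that persists in cells that have stopped dividing. DNA methylation is a separate silencing mark on cytosines. DNMT3A and DNMT3B place it anew, DNMT1 copies it after replication, UHRF1 finds the half-copied sites for DNMT1, and TET3 oxidises it, the first step of its removal. The study asked how SOX4 acts on STAT6, including through methylation of the STAT6 promoter, which is why the supply of these enzymes matters here.

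Promoter sequence was read first, since SOX4, STAT6 and the cell cycle factors E2F act by binding DNA. The windows ran from 250 bases before to 50 after a start in the RefSeq promoter table on GRCh38.p14, and the first window listed was read for each of the 10 members. That start need not be a gene's outermost one. For DNMT3B the table has a single window, at the internal start of NM_175850, so the outermost start was not searched. That transcript held at most 6.59% of DNMT3B counts in any library, so the window is not the start of most DNMT3B measured here. The E2F word was TTT, then GG, CC, GC or CG, then CGC, on either strand. It was present in 3.31% of 35116 windows and in 5 of the 10 members, namely EZH2, EZH1, SUZ12, DNMT1 and UHRF1. The lines below show these 5 matches within 26 bases, 5′ to 3′ along the gene, with the E2F word in capitals.
EZH2, chr7:148884274-148884299, minus strand: gctgccgcgTTTGGCGCtcggtccgg
EZH1, chr17:42745139-42745164, minus strand: ggggttttgGCGGCAAAtgacagtag
SUZ12, chr17:31936809-31936834, plus strand: acccctaatTTTCCCGCgaattcagt
DNMT1, chr19:10194939-10194964, minus strand: tcggtttccGCGCGAAAagccggggc
UHRF1, chr19:4909478-4909503, plus strand: cgagttttcGCGGGAAAaaaatcaga
The SOX4 word, A or T at each of its first 2 positions followed by CAAAG or CAATG, was present on either strand in 20.4% of windows and in 2 members, SUZ12 and DNMT3B. They are shown because SOX4 was the edited gene, with the SOX4 word in capitals.
SUZ12, chr17:31936825-31936850, plus strand: cgaattcagTTCAAAGaggcggccgg
DNMT3B, chr20:32779857-32779882, plus strand: gagagagcaAACAAAGgggtcaggag
The STAT6 word, TTC and GAA separated by 4 bases, was present in 6.44% of windows and in SUZ12 and UHRF1. In both genes it overlapped the E2F word printed above. The cell cycle word TTTGAA was present in 15.2% of windows and in SUZ12, where it overlapped the SOX4 word, and another listed window of DNMT3A held it too. A match shows only that the letters are there.

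The genes perturbed in the study were examined before the members. Levels are given throughout as CPM, the counts of a gene in 1000000 counts of the library, scaled by trimmed mean of M-values (TMM) factors over the 8 libraries. SOX4 measured 728 and 249 CPM in the Hep3B libraries and 261 and 271 CPM in the knockout libraries. The groups overlapped, and the log2 fold change was -0.83 ± 0.54 (SE, adjusted p = 0.372, edgeR's quasi-likelihood test, 2 libraries against 2). Transcript level does not read a frameshift, so SOX4 RNA did not check the knockout label. STAT6 measured 29.1 and 12.4 CPM in Hep3B against 2.42 and 1.98 CPM in the knockout, a log2 fold change of -3.18 ± 0.57 (adjusted p = 0.0275, and 0.141 or 0.196 without knockout library 1 or 2). With STAT6 siRNA it measured 11.5 and 6.49 CPM, below the 46.2 and 33.9 CPM of the control siRNA libraries, with a log2 fold change of -2.22 ± 0.72 (unadjusted p = 0.00834, adjusted p = 1.00, edgeR's quasi-likelihood test). With the replicate number as a block, STAT6 was called at -2.25 (adjusted p = 4.11e-20, edgeR's quasi-likelihood test). The labels do not say that a number marks a shared batch. The liver label was checked with 8 hepatocyte line markers (ALB, AFP, TTR, APOA1, APOB, SERPINA1, GPC3 and HNF4A), all of which were listed in both tables. They summed to 11968 and 10576 CPM in the Hep3B libraries and to 39751 and 24368 CPM in the knockout libraries. ALB was the most abundant of the 8, so the sums do not describe each marker.

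EZH2 (gene ID 2146, chr7:148807372-148884350 on hg38 as the tables give it) had the largest change among the members. It measured 45.8 and 75.6 CPM in Hep3B and 17.3 and 20.6 CPM in the SOX4 knockout. Both knockout libraries lay below both Hep3B libraries, and the knockout pair was the closer. The log2 fold change was -1.62 ± 0.39, a level 0.326 times that of Hep3B, and the adjusted p of 0.0528 fell just short of the threshold of 0.05 (unadjusted p = 0.00339, edgeR's quasi-likelihood test). In the same test 849 of 14415 genes were called, or 5.89%, and EZH2 ranked 926 by p. In bulk RNA, fewer cells making a transcript and less of it in each cell cannot be told apart. The call depended on the settings: the adjusted p was 0.0483 with median-of-ratios scaling, 0.00388 with DESeq2 and 0.00866 without Hep3B library 1, but 0.0711 without Hep3B library 2, and 0.317 and 0.270 without knockout library 1 or 2. The direction was the same in each. DESeq2 called 15% of all genes tested (9.57% higher and 5.41% lower), so its calls are to be read against that larger share.

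**Figure D1:**
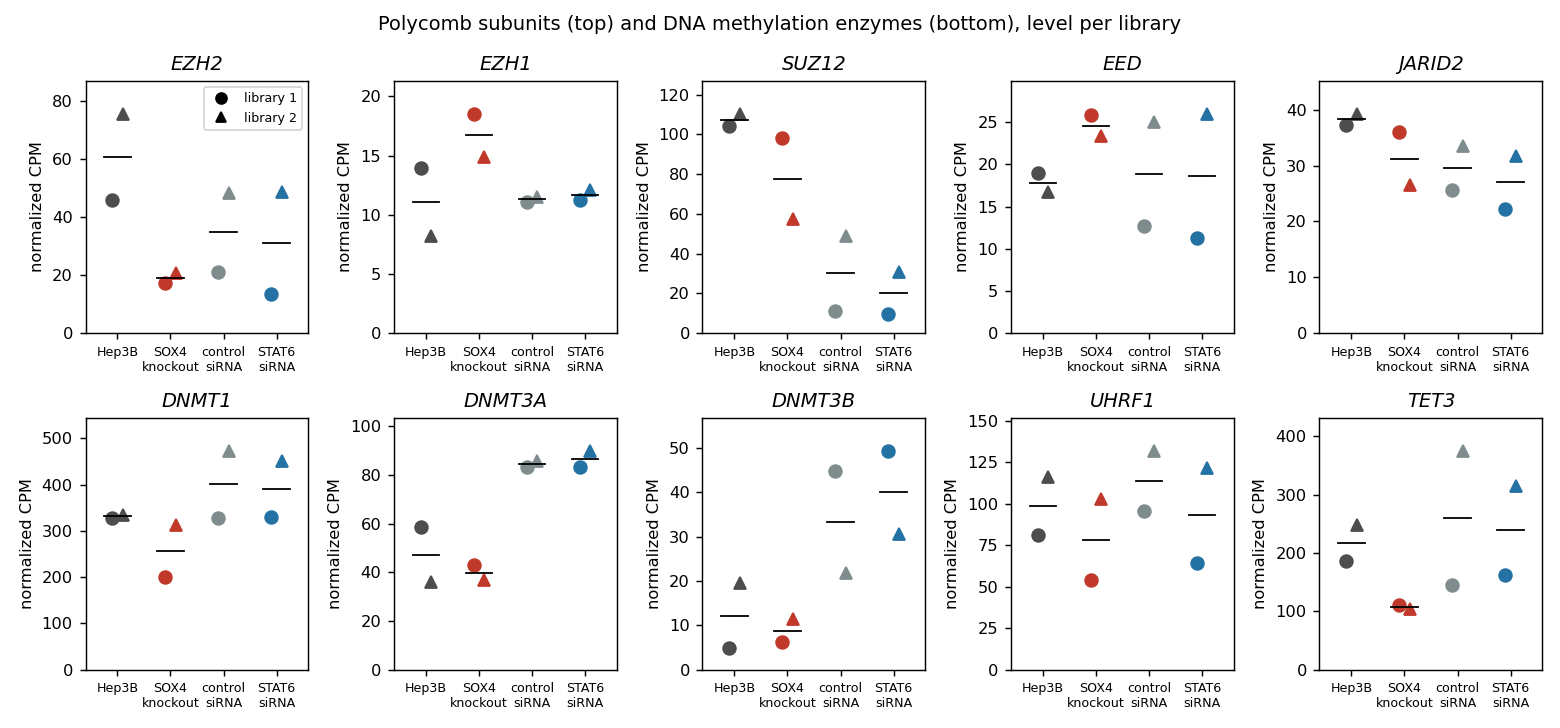
Level of each member in every library, as TMM-normalized CPM on linear axes from 0, for Hep3B, SOX4 knockout, control siRNA and STAT6 siRNA. Circles are libraries numbered 1, triangles libraries numbered 2 and lines the mean of each pair. EZH2 lay at 17.3 and 20.6 CPM in the knockout and at 45.8 and 75.6 CPM in Hep3B, and SUZ12 was lower in all 4 siRNA libraries than in all 4 of the other table, as were 13.4% of genes tested.

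The other polycomb subunits did not pass the test in the knockout. EZH1 (gene ID 2145, chr17:42700275-42745054), the alternative catalytic subunit, measured 14.0 and 8.16 CPM in Hep3B against 18.5 and 14.9 CPM in the knockout. Its knockout libraries lay above both controls, with a log2 fold change of 0.65 ± 0.44 (adjusted p = 0.390, edgeR's quasi-likelihood test). Set per kilobase of transcript, EZH2 stood at 17.9 and 29.6 CPM per kilobase in Hep3B and EZH1 at 3.02 and 1.77. In the knockout EZH2 stood at 6.77 and 8.04 CPM per kilobase and EZH1 at 4.01 and 3.22, so EZH2 was above EZH1 in every library of that table but by a smaller margin in the edited cells.

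SUZ12 (gene ID 23512, chr17:31937025-32001039), the scaffold of the complex, measured 104 and 110 CPM in Hep3B and 98.3 and 57.3 CPM in the knockout. Its log2 fold change was -0.40 ± 0.38 (adjusted p = 0.543), and most of the drop was in knockout library 2. EED (gene ID 8726, chr11:86244384-86278811), which binds the methylated histone and stimulates the enzyme, measured 19.0 and 16.7 CPM in Hep3B against 25.9 and 23.3 CPM in the knockout, a log2 fold change of 0.52 ± 0.36 (adjusted p = 0.393, edgeR's quasi-likelihood test). JARID2 (gene ID 3720, chr6:15245975-15522043) measured 37.3 and 39.3 CPM in Hep3B against 36.0 and 26.5 CPM in the knockout, a log2 fold change of -0.23 ± 0.36 (adjusted p = 0.725, edgeR's quasi-likelihood test). The groups did not overlap for any of the 5 subunits, EZH1 and EED lying above and EZH2, SUZ12 and JARID2 below. That arrangement was common here, since 28.5% of all genes tested had both knockout libraries above both controls and 29.7% had both below, 58.2% in all.

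Among the DNA methylation enzymes none passed the test in the knockout, and DESeq2 called 0 of them. All 5 log2 fold changes were below 0, in a comparison where 50.4% of genes tested lay above 0. TET3 (gene ID 200424, chr2:73986404-74108176) moved most, from 186 and 248 CPM in Hep3B to 110 and 103 CPM in the knockout. Its groups were well apart and its log2 fold change was -0.96 ± 0.35, but the adjusted p was 0.138 (unadjusted p = 0.0257, edgeR's quasi-likelihood test). An unadjusted p below 0.05 was met by 26% of all genes tested.

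DNMT1 (gene ID 1786, chr19:10133344-10195136), the maintenance enzyme, measured 328 and 335 CPM in Hep3B and 200 and 313 CPM in the knockout. The Hep3B pair agreed closely, and only knockout library 1 was far below it, giving a log2 fold change of -0.31 ± 0.39 (adjusted p = 0.653, edgeR's quasi-likelihood test). S1PR2 overlaps DNMT1 on the same strand over 9854 bases, and it carried 1145 counts against 25476 for DNMT1 over the 4 libraries of this table. UHRF1 (gene ID 29128, chr19:4909430-4962155) measured 81.2 and 116 CPM in Hep3B and 53.9 and 103 CPM in the knockout, which overlapped, with a log2 fold change of -0.27 ± 0.41 (adjusted p = 0.713, edgeR's quasi-likelihood test).

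DNMT3A (gene ID 1788, chr2:25232961-25342591) measured 58.7 and 35.9 CPM in Hep3B and 42.9 and 36.9 CPM in the knockout, a log2 fold change of -0.19 ± 0.39 (adjusted p = 0.793). DNMT3B (gene ID 1789, chr20:32762385-32809357) was the least even member, at 4.81 and 19.5 CPM in Hep3B and 6.16 and 11.4 CPM in the knockout. Its 2 Hep3B libraries differed by more than the groups did, and its log2 fold change of -0.41 ± 0.67 (adjusted p = 0.740, edgeR's quasi-likelihood test) turned positive, at 0.89, without Hep3B library 2. Without Hep3B library 1 that of DNMT3A turned to 0.17, and without knockout library 1 that of UHRF1 turned to 0.12.

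The number of genes called in this comparison rested heavily on single libraries. It was 2298 without Hep3B library 1, 1322 without Hep3B library 2, 73 without knockout library 1 and 21 without knockout library 2, against 849 with all 4. Of the 849, 648 (4.5% of genes tested) were higher and 201 (1.39%) lower in the knockout.

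STAT6 siRNA moved no member past the threshold in the main fit, which had no block. With the replicate number as a block and GC content and length offsets together, 369 of 13554 genes were called. Among them was 1 member, UHRF1 (lower). In the main fit 0 of 13554 genes were called (0%), 14 (0.103%) had an unadjusted p below 0.05, and DESeq2 also called 0. All 10 members overlapped between the siRNA groups, where 7.68% of all genes tested did not (3.27% above and 4.41% below), and all 10 had an adjusted p of 1.00 (edgeR's quasi-likelihood test). Of the 10 log2 fold changes 8 were below 0, and 46.3% of those of all genes were above 0. That count rested on single libraries, being 1 without STAT6 siRNA library 1, 2 without control siRNA library 2, 7 without control siRNA library 1 and 9 without STAT6 siRNA library 2. EZH2 measured 21.0 and 48.4 CPM with control siRNA and 13.4 and 48.8 CPM with STAT6 siRNA. The log2 fold change was -0.18 ± 0.77, so the standard error was several times the estimate. SUZ12 measured 11.3 and 49.0 CPM with control siRNA and 9.47 and 30.7 CPM with STAT6 siRNA, a log2 fold change of -0.61 ± 0.84, which was the largest among the members. The library numbered 1 was low and the library numbered 2 high in both siRNA groups.

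EZH1 was steadier, at 11.1 and 11.5 CPM with control siRNA and 11.3 and 12.1 CPM with STAT6 siRNA. EED measured 12.7 and 25.1 CPM against 11.3 and 26.0 CPM, and JARID2 25.6 and 33.5 CPM against 22.3 and 31.8 CPM. For EED and JARID2 each library differed more from the other library of its own group than from the same-numbered library of the other group.

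DNMT1 measured 328 and 473 CPM with control siRNA and 331 and 451 CPM with STAT6 siRNA, a log2 fold change of -0.08 ± 0.56. DNMT3A measured 83.3 and 85.8 CPM against 83.5 and 90.1 CPM, the closest agreement among the 4 libraries of any DNA methylation enzyme. DNMT3B measured 44.7 and 21.9 CPM against 49.4 and 30.5 CPM, here with library 1 the higher in both groups. UHRF1 measured 95.7 and 132 CPM against 64.1 and 122 CPM, a log2 fold change of -0.33 ± 0.60. TET3 measured 145 and 375 CPM against 162 and 315 CPM, so its paired libraries stood far apart in both groups.

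**Figure D2:**
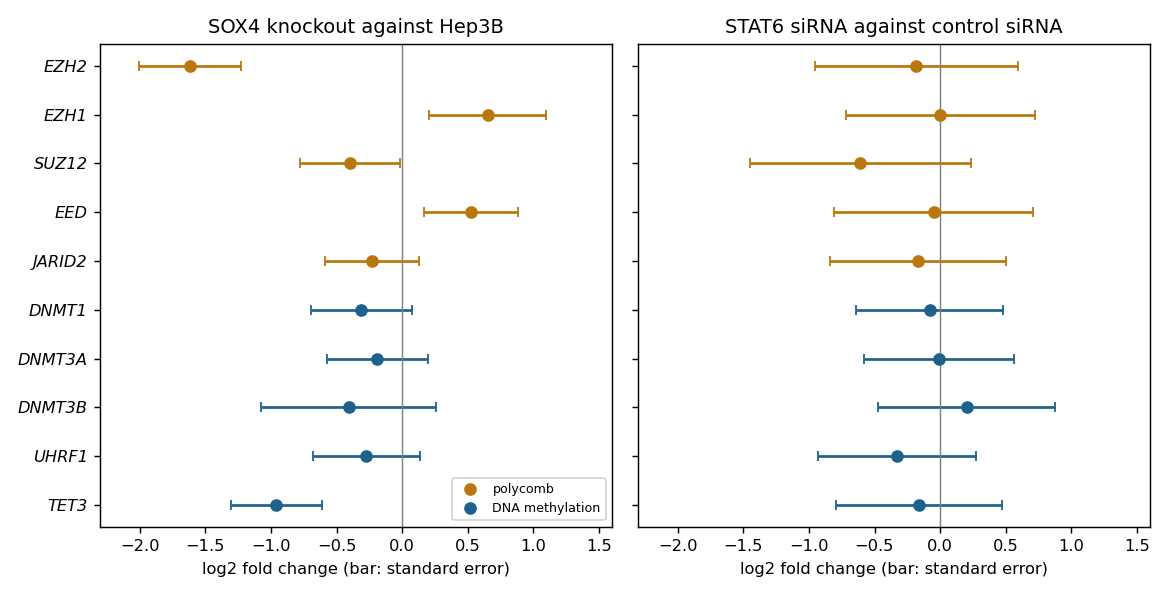
The log2 fold change of each member with its standard error from edgeR's quasi-likelihood fit, for the SOX4 knockout against Hep3B on the left and STAT6 siRNA against control siRNA on the right. EZH2 stood at -1.62 ± 0.39 on the left, and every siRNA estimate on the right had a bar that crossed 0.

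The perturbations were compared directly in a joint model of the 8 libraries, each perturbation against its own controls. The EZH2 change was 1.52 log2 units more negative in the knockout than with siRNA, but with a standard error of 0.93 the difference was not detectable (unadjusted p = 0.122, adjusted p = 0.936, edgeR's quasi-likelihood test). TET3 differed by -0.90 ± 0.79 and DNMT3B by -0.74 ± 0.97, each with an adjusted p of 1.00 (edgeR's quasi-likelihood test). No member was called, and 10 of 14632 genes (0.0683%) were.

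Across the 4 conditions the members ranked differently. EZH2 had its highest mean in Hep3B, 60.7 ± 21.1 CPM (SD, n = 2), and its lowest in the knockout, 18.9 ± 2.29 CPM, with each neighbour in the order (Hep3B, control siRNA, STAT6 siRNA, knockout) overlapping the next. TET3 was also lowest in the knockout, at 107 ± 4.85 CPM, and DNMT1 was too, at 257 ± 80.0 CPM; for both of these the knockout range lay below that of the next condition, Hep3B. EZH1 was highest in the knockout, at 16.7 ± 2.57 CPM, apart from the other 3 conditions, which overlapped. UHRF1 and EED had no neighbours apart from each other, and for JARID2 only Hep3B stood apart from the knockout, the next in order.

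DNMT3A and DNMT3B were the members whose 4 siRNA libraries all lay above the 4 Hep3B and knockout libraries, though table and transfection cannot be told apart. Of 14313 genes listed in both tables and tested in the joint model, 12.3% lay above in this way and 13.4% below, so 2 members above and 1 below (SUZ12) is near the share of all genes. DNMT3A averaged 84.6 ± 1.75 CPM with control siRNA and 86.8 ± 4.63 CPM with STAT6 siRNA, against 47.3 ± 16.1 CPM in Hep3B and 39.9 ± 4.23 CPM in the knockout (SD, n = 2). DNMT3B averaged 33.3 ± 16.2 CPM with control siRNA and 40.0 ± 13.4 CPM with STAT6 siRNA, against 12.2 ± 10.4 CPM in Hep3B. SUZ12 went the other way, from 107 ± 4.16 CPM in Hep3B to 30.1 ± 26.6 CPM with control siRNA and 20.1 ± 15.0 CPM with STAT6 siRNA.

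Base composition moved with these levels. In both siRNA groups the ratio of library 2 to library 1 fell with the GC content of the transcript, with Spearman correlations across 11224 genes of -0.781 for control siRNA and -0.845 for STAT6 siRNA. In Hep3B and the knockout they were -0.101 and 0.319 across 12266 genes. Genes within a library are not independent replicates. SUZ12 has the lowest GC content of the members, 38.0%, and its library 2 exceeded its library 1 by 2.10 log2 units with control siRNA and 1.69 with STAT6 siRNA. EZH2, with 44.8% GC, exceeded by 1.20 and 1.86 log2 units. DNMT3B, with 54.4% GC, was lower in library 2 by 1.03 and 0.69 log2 units on that scale. UHRF1 at 57.9% and DNMT1 at 55.6% GC were nevertheless higher in library 2, by 0.93 and 0.45 log2 units with STAT6 siRNA.

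**Figure D3:**
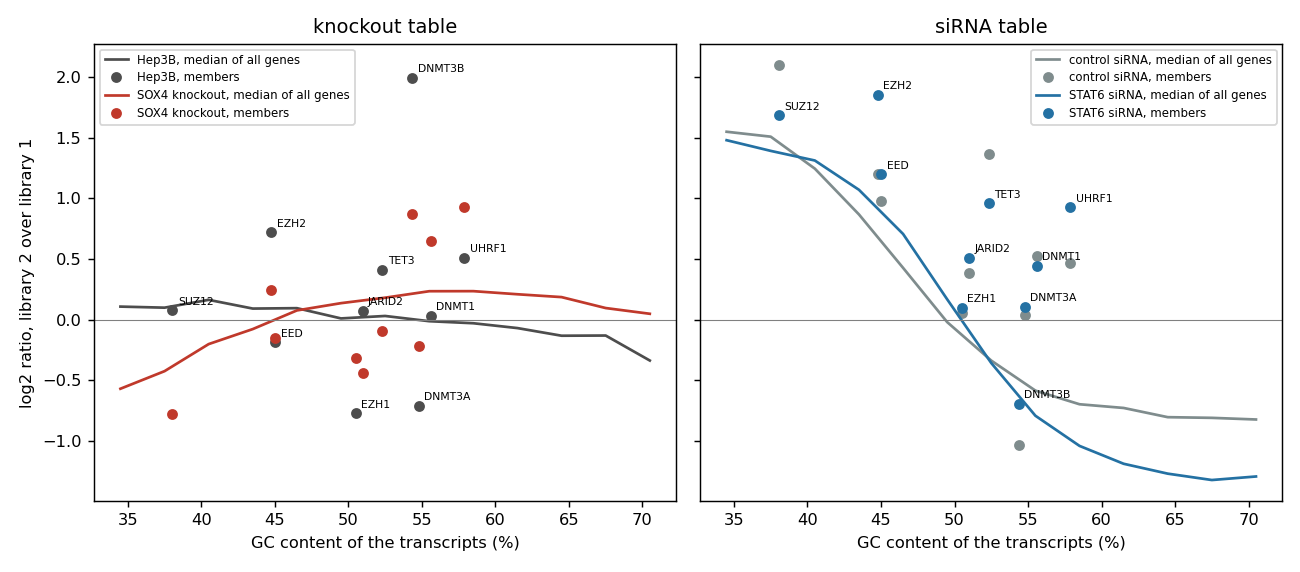
The log2 ratio of library 2 to library 1 against the GC content of a gene's transcripts in percent, for the Hep3B and knockout libraries on the left and the siRNA libraries on the right. Lines are medians of all genes in GC bins and points are the 10 members. SUZ12, at 38.0% GC, stood at 2.10 and 1.69 log2 units in the siRNA groups.

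Levels corrected for GC content and length, an alternative chosen after seeing the data, narrowed the SUZ12 gap but kept EZH2 lowest in the knockout. Corrected SUZ12 was 57.1 and 59.0 CPM in Hep3B, 58.7 and 44.1 CPM in the knockout, 29.4 and 45.7 CPM with control siRNA and 27.8 and 33.5 CPM with STAT6 siRNA. Its separations were thus lost: control siRNA library 2 lay above knockout library 2, and knockout library 1 lay between the Hep3B libraries. Corrected EZH2 was 37.8 and 64.1 CPM in Hep3B, 16.0 and 18.7 CPM in the knockout, 27.7 and 43.2 CPM with control siRNA and 21.6 and 43.5 CPM with STAT6 siRNA. After the same correction DNMT3A in STAT6 siRNA library 1, at 61.2 CPM, fell below Hep3B library 1, at 65.8 CPM, and DNMT3B in control siRNA library 2, at 22.2 CPM, fell below Hep3B library 2, at 23.2 CPM. The other corrected siRNA levels of these enzymes lay above both Hep3B libraries.

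The deposited tables list transcripts separately, and the composition of DNMT3A differed in the knockout while its total did not pass the test. DNMT3A has an upstream start, used by the long form DNMT3A1, and an internal start, used by the short form DNMT3A2, which lacks part of the amino-terminal region and is known from stem cells and germ cells. Upstream-start transcripts, whose 5′ ends the tables place at 25341916 and 25342591 on chromosome 2, made up 24.2% and 20.3% of DNMT3A counts in Hep3B. They made up 55.2% and 57.9% in the knockout, 16.0% and 20.9% with control siRNA, and 22.8% and 16.7% with STAT6 siRNA. Both knockout libraries were above all 6 others, with Wilson 95% intervals of 52.5% to 57.9% and 54.3% to 61.4%, the highest upper bound elsewhere being 26.7%. These intervals cover counting error only, and shares among overlapping transcripts are estimates.

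In counts, the upstream forms held 274 of 1134 and 147 of 725 in Hep3B and 714 of 1294 and 432 of 746 in the knockout. The internal forms held 860 and 578 in Hep3B and 580 and 314 in the knockout. NM_022552, the main upstream transcript, shifted by 34.9 percentage points between the group means without overlap. A transcript that moved as far, with the groups apart, was found in 74 of 6386 genes (1.16%). A shift in any transcript with groups apart was found in 61.8% of those genes. No DNMT3A transcript was apart between the siRNA groups.

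DNMT3B was mostly a form that lacks part of the catalytic domain. NM_175849, which skips exons 10, 21 and 22 of the 23 exons of the full-length transcript, is known as DNMT3B3 and as a form without catalytic activity of its own. Exon 21 spans chr20:32805338-32805407 and exon 22 spans chr20:32806209-32806327. This form made up 89.2% and 77.2% of DNMT3B counts in Hep3B, 64.5% and 69.6% in the knockout, 57.5% and 80.7% with control siRNA, and 64.9% and 68.0% with STAT6 siRNA. Its share was lower in both knockout libraries than in both Hep3B libraries, by 15.9 percentage points between means, a distance reached by 12.4% of genes. The full-length transcript NM_006892 held at most 15.1%, in control siRNA library 1, and in Hep3B library 1 its expected count of 0.37 rounded to 0 of 93, which by the Wilson interval allows up to 3.97%. Transcript counts were rounded to whole numbers for these shares. Exons 21 and 22 are also kept by NM_175848, which skips only exon 10, and by NM_175850, which has the internal start. On unrounded counts NM_175848 held between 0.721%, in knockout library 1, and 20.4%, in STAT6 siRNA library 1. NM_175850 held at most 6.59%, in STAT6 siRNA library 1.

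Shares of other members moved less than that of DNMT3A. For UHRF1, the share of NM_001048201 was 19.3 percentage points higher in the knockout, a distance that 8.39% of genes matched. For JARID2, the change of NM_001267040 was -17.9 points, which 9.69% matched, and for EED that of NM_003797 was -13.2 points, which 16.5% matched. These are the transcripts of each gene that shifted most with the groups apart. That of DNMT1, NM_001379, shifted by -3.27 points. For EZH2 it was the minor transcript NM_004456, at -2.62 points. The main EZH2 transcript, NM_001203247, held 67.9% and 69.8% in Hep3B and 79.2% and 49.5% in the knockout, so the knockout libraries fell on either side of the Hep3B pair. EZH1, SUZ12 and TET3 were listed with 1 transcript each. The UHRF1 share was 67.2% and 68.5% in the knockout and 49.1% and 67.2% with control siRNA. The JARID2 share was 59.2% and 61.6% in the knockout and 76.0% and 54.4% with control siRNA. In both genes control siRNA library 2, without the edit, thus lay near or beyond the knockout shares. For EED the knockout shares, 83.4% and 76.3%, lay below the control siRNA shares, 86.9% and 88.7%.

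The wider pathways were read from lists of partner genes. Of 7 tested PRC2 partners 0 were called in the knockout by edgeR's quasi-likelihood test or by DESeq2, and 1 had an unadjusted p below 0.05. MTF2, which guides the complex to CpG islands, measured 39.1 and 48.0 CPM in Hep3B against 23.6 and 15.1 CPM in the knockout, a log2 fold change of -1.10 ± 0.39 (adjusted p = 0.130, edgeR's quasi-likelihood test). The histone chaperones RBBP4 and RBBP7, which are interchangeable in the complex, lay on opposite sides, at -0.87 and 0.83 log2 units, neither past the threshold. The median over the 7 partners was 0.28, beside 0.0082 over all genes tested.

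Polycomb repressive complex 1, which reads the mark made by the EZH2 complex, held the only gene of the polycomb lists that was called. CBX2, a chromobox reader of methylated lysine 27, fell from 115 and 117 CPM in Hep3B to 27.2 and 29.02 CPM in the knockout, a log2 fold change of -1.98 ± 0.33 (adjusted p = 0.0244, edgeR's quasi-likelihood test). The adjusted p was 0.196 without knockout library 1 and 0.199 without knockout library 2. CBX7, another chromobox protein, lay the other way, at 3.52 and 1.73 CPM against 13.4 and 6.62 CPM, with a log2 fold change of 2.00 ± 0.62 (adjusted p = 0.0962, edgeR's quasi-likelihood test). Of 22 subunits 1 was called lower and 0 higher, and the median was -0.56. DESeq2 also called CBX2 lower, and it called CBX7 higher.

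Of 6 genes on the list of lysine 27 demethylases, BAP1 and its ASXL partners, 0 were called by edgeR's quasi-likelihood test, 2 had an unadjusted p below 0.05, and DESeq2 called 1 (KDM6B, lower). KDM6B and KDM6A, the demethylases of lysine 27, stood at log2 fold changes of -1.12 ± 0.37 and -0.84 ± 0.36, and BAP1, which removes the ubiquitin placed by complex 1, at 0.76 ± 0.34.

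Among 10 other DNA methylation genes that were tested, 1 was called. UHRF2, the relative of UHRF1, fell from 69.0 and 64.7 CPM in Hep3B to 18.6 and 14.7 CPM in the knockout, a log2 fold change of -1.94 ± 0.36 (adjusted p = 0.0297, edgeR's quasi-likelihood test). Without knockout library 1 or 2 the adjusted p was 0.174 or 0.234. TDG, the glycosylase that cuts out oxidised methylcytosine, measured 94.5 and 77.2 CPM against 33.7 and 33.9 CPM, at -1.29 ± 0.34 (adjusted p = 0.0678, edgeR's quasi-likelihood test). TET2 measured 56.0 and 50.2 CPM against 26.2 and 15.6 CPM, at -1.28 ± 0.40 (adjusted p = 0.0973, edgeR's quasi-likelihood test). DESeq2 called UHRF2, TDG and TET2 lower. DNMT3L, DPPA3 and ZFP57 were not listed. Of 7 methyl-CpG binding proteins 0 were called by edgeR's quasi-likelihood test, 2 had an unadjusted p below 0.05 and DESeq2 called 1 (ZBTB4, higher), with ZBTB4 at 1.32 ± 0.40 and MBD1 at -0.88 ± 0.34 log2 units.

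**Figure D4:**
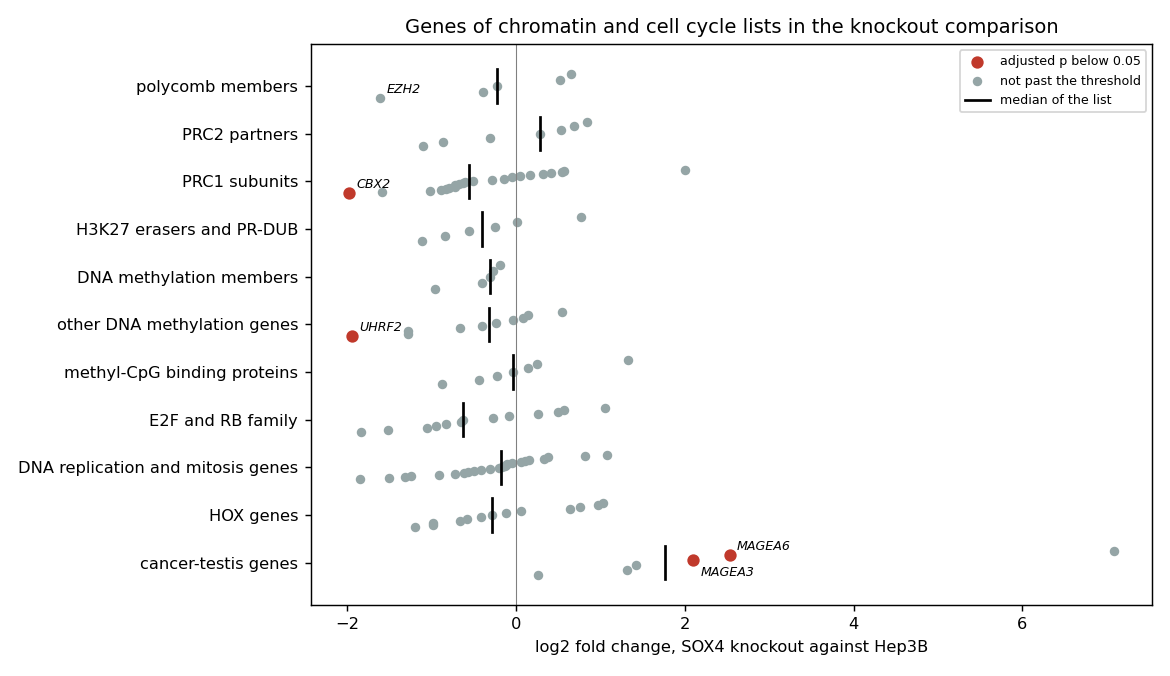
The log2 fold change in the SOX4 knockout against Hep3B of every tested gene of 11 lists, with 1 dot per gene, a black line at each list's median and red dots for an adjusted p below 0.05. CBX2 and UHRF2 were lower and MAGEA3 and MAGEA6 higher, and EZH2, labelled for reference, was not past the threshold. The dot farthest right is MAGEA1, with 0 counts in both Hep3B libraries, so its fitted value rests on the prior count.

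Division genes were described beside EZH2, DNMT1 and UHRF1 because these are E2F targets in many cells. Of 24 DNA replication and mitosis genes 0 were called in the knockout by edgeR's quasi-likelihood test. An unadjusted p below 0.05 was met by 6 of them, and by 26% of all genes tested. In direction 17 lay below 0 and 7 above, with a median of -0.18, where 50.4% of all genes tested lay above 0. DESeq2 called 4 lower, namely CCNE2, CDC6, CDT1 and MCM7, and 0 higher, where 15% of all genes were called by it in either direction and 5.41% lower. CDC6, which loads the replicative helicase, measured 141 and 244 CPM in Hep3B against 33.1 and 69.5 CPM, at -1.85 ± 0.47 (adjusted p = 0.0605, edgeR's quasi-likelihood test). Its partner CDT1 stood at -1.51 ± 0.39 and the helicase subunit MCM7 at -1.32 ± 0.41. In the E2F and RB family 0 of 13 were called, 4 had an unadjusted p below 0.05, DESeq2 called 1 (E2F5, lower) and the median was -0.63, with E2F5 at -1.84 ± 0.55, RB1 at -1.52 ± 0.68 and E2F3 at -1.05 ± 0.39. The part of the division and E2F genes in the EZH2 level was not tested.

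Classical targets of both marks were read as well. Of 39 HOX genes, 13 were tested in the knockout and 0 called by edgeR's quasi-likelihood test or DESeq2, 2 having an unadjusted p below 0.05, with HOXA10 at 1.03 ± 0.36 and HOXA3 at -0.99 ± 0.40 log2 units. Cancer-testis genes are kept silent by DNA methylation in most tissues. Of 27 on the list, 7 were listed, 6 passed the filter on low counts, and 2 were called by edgeR's quasi-likelihood test. MAGEA1, with 0 counts in both Hep3B libraries and 14 and 21 in the knockout, passed only through the knockout, and DESeq2 called it higher beside MAGEA3 and MAGEA6. TEX19, with 7 and 30 counts in Hep3B and 4 and 3 in the knockout, did not pass, so no count of directions is drawn from the tested genes. MAGEA3 rose from 10.7 and 17.2 CPM to 47.0 and 67.4 CPM, with a log2 fold change of 2.10 ± 0.41 (adjusted p = 0.0330), and MAGEA6 from 8.39 and 12.1 CPM to 44.7 and 68.7 CPM, at 2.53 ± 0.41 (adjusted p = 0.0226, edgeR's quasi-likelihood test). Neither was called without knockout library 1 (adjusted p = 0.120 and 0.0741) or knockout library 2 (0.236 and 0.174). These genes are near-identical copies whose reads the estimate divides, so they are uncertain as separate results.

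With STAT6 siRNA 0 genes of any of these lists were called by edgeR's quasi-likelihood test or DESeq2, and 0 had an unadjusted p below 0.05. The medians were -0.11 for the PRC2 partners, -0.07 for complex 1, -0.13 for the other DNA methylation genes and -0.01 for the replication and mitosis genes, beside -0.03 over all genes tested.

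Markers of other cell types were read in the knockout as well. Over all genes tested 4.5% were called higher by edgeR's quasi-likelihood test and 9.57% by DESeq2, and 26% had an unadjusted p below 0.05. Of 7 fibroblast markers 3 were tested and 2 called higher, LUM at 6.67 ± 0.50 (adjusted p = 0.00384) and PDGFRB at 2.53 ± 0.59 log2 units (adjusted p = 0.0494, edgeR's quasi-likelihood test). The list summed to 4.04 and 6.98 CPM in Hep3B and 88.5 and 69.7 CPM in the knockout, with LUM the most abundant, and COL1A2, COL3A1, DCN and THY1 were not listed. Without knockout library 1 or 2 LUM was called and PDGFRB was not (adjusted p = 0.177 and 0.288). Of 6 leukocyte markers 3 were tested and 0 called by edgeR's quasi-likelihood test, all 3 having an unadjusted p below 0.05, and DESeq2 called CD68 and LYZ higher. They summed to 82.7 and 33.5 CPM in Hep3B and 166 and 396 CPM in the knockout, with LYZ the most abundant and the lymphocyte markers CD3E and MS4A1 not listed. LYZ was uneven within both groups, at 42.4 and 5.69 CPM in Hep3B and 98.9 and 309 CPM in the knockout. Of 8 hepatocyte line markers 2 were called higher, TTR at 3.14 ± 0.50 and APOA1 at 2.40 ± 0.51 log2 units, and neither was called without knockout library 1 (adjusted p = 0.0996 and 0.222) or library 2 (0.054 and 0.0888). DESeq2 called 4 higher, adding ALB and SERPINA1. AFP, the fetal albumin relative, had a log2 fold change of -0.76 ± 0.72, at 136 and 28.7 CPM in Hep3B against 65.8 and 27.8 CPM in the knockout, which overlapped. The part of these genes in the values of the members was not tested.

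The genes whose levels followed EZH2 most closely over the 8 libraries were UTP11 (Pearson's r = 0.991), E2F6 (0.988), STRAP (0.985), RBM17 (0.983) and UTP6 (0.983), out of 9532 genes with a mean of at least 10 CPM. These 5 have GC contents between 43.0% and 44.5%, and EZH2 has 44.8%. For DNMT1 they were AGO2 (0.974), ANP32B (0.967), HNRNPM (0.965), ABCF1 (0.964) and HNRNPD (0.962), with GC contents between 45.4% and 53.7% against 55.6% for DNMT1. The 8 libraries come from only 2 tables, so these values are a description of likeness only.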

How the data were processed

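RNA was extracted with TRIzol and made into libraries with a stranded mRNA kit, per the labels. The submitters' processing notes name STAR, Partek and hg38, with versions and strand setting not given in the sources used here. The authors deposited expected counts per RefSeq transcript, not normalized, in 2 tables of 33253 and 30650 transcripts, where the smallest sum over 4 libraries was 10. A gene's transcripts were summed and rounded to whole numbers, since the design had assumed counts. Each table was fitted separately with edgeR 4.0.16 under R 4.3.3, using TMM scaling, the filterByExpr filter and the quasi-likelihood functions glmQLFit and glmQLFTest without a block, over all genes, with Benjamini-Hochberg adjustment and a threshold of 0.05. Alternatives used DESeq2 1.42.0, other filters and scaling, the replicate number as a block, GC content and length offsets (GENCODE 29) and leaving out each library. The fits were tested on simulated data. GC content and length were known for 15785 of 16040 and 14728 of 14955 genes. Printed CPM used TMM factors over 8 libraries. Partner genes are named where called, or as the 3 largest changes of a list with a mean of at least 100 counts, apart from a few that are not reported here. The members and lists were chosen with earlier results of these data known. Motifs and sequences came from RefSeq promoter windows on GRCh38.p14. No columns were left without a library.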

Additional observations from a re-analysis of the deposited data

Results flagged for a closer look

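LUM, which encodes a collagen-binding proteoglycan and stood on the fibroblast marker list, changed differently under the perturbations. It measured 0.569 and 0.693 CPM in Hep3B and 74.8 and 48.7 CPM in the SOX4 knockout, and at most 1.10 CPM in any siRNA library. The knockout change exceeded the siRNA change by 8.21 log2 units (adjusted p = 0.0408, edgeR's quasi-likelihood contrast over 8 libraries), but the adjusted p was 0.146 and 0.232 without Hep3B library 1 or 2 and 0.0656 without knockout library 1. A fitted value of this kind depends on the prior count, as STAT6 siRNA library 1 held 0 counts. The difference was 6.39 log2 units without control siRNA library 2 and 13.3 without STAT6 siRNA library 2. Of 64 named genes tested this way, LUM was the only one past the threshold, 7 had an unadjusted p below 0.05, and no member of the EZH2 complex or of the DNA methylation enzymes was called. With 2 libraries a condition, single outlying libraries were not tested for.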

How the results depend on the processing

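In the knockout 849 genes were called. DESeq2 called 2160 (63.9% of them higher, against 76.3%), a minimum of 10 counts in every library 518, and the replicate block with GC content and length offsets 53. Leaving out 1 library gave between 21 and 2298. The offsets alone moved the median of all genes from 0.0082 to -0.10. EZH2 was the only member called under any alternative here, so members called rose from 0 to 1 with median-of-ratios factors, DESeq2, the replicate block (-1.58, adjusted p = 0.0468, edgeR), the newer quasi-likelihood estimate added after seeing the data (adjusted p = 0.0480) and without Hep3B library 1 (between 0 and 1 over the libraries left out). Its log2 fold change kept its sign throughout, from -1.98 to -1.24 without single libraries. The ranges without 1 library crossed 0 for SOX4 (-1.42 to 0.11), DNMT3A (-0.52 to 0.17), DNMT3B (-1.14 to 0.89) and UHRF1 (-0.82 to 0.12).

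STAT6 and the 8 list genes named as called (CBX2, UHRF2, MAGEA3, MAGEA6, TTR, APOA1, LUM and PDGFRB) kept their direction in every alternative run. Among these 9 only LUM kept its call under block and offsets together, where the adjusted p of STAT6 was 0.0644, and only LUM kept it without either knockout library. APOA1 and PDGFRB lost it with offsets alone (adjusted p = 0.0884 and 0.0650). UHRF2, MAGEA3, MAGEA6, APOA1 and PDGFRB lost it in 1 fit of all 8 libraries (0.0820, 0.0742, 0.0554, 0.0632 and 0.0526), and PDGFRB also without a filter (0.0503) and with a minimum of 10 counts (0.0508).

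Libraries with the same number deviated together with a correlation of 0.870 in the siRNA table and -0.084 in the other, but the labels do not say that a number marks a shared batch, so the numbers were not taken as pairs. With the replicate block 62 genes were called between the siRNA groups, and with block and offsets together 369, among them 1 member, UHRF1 (-0.54, adjusted p = 0.000808, edgeR). STAT6 itself was called with the block (-2.25, adjusted p = 4.11e-20, edgeR) and with block and offsets (-2.38, adjusted p = 5.93e-47), and SOX4 with both (-0.48, adjusted p = 0.00720). Without single siRNA libraries 0 were called. These fits gave ranges that crossed 0 for SOX4 (-1.61 to 0.50), EZH2 (-1.48 to 0.55), EZH1 (-0.11 to 0.10), SUZ12 (-1.78 to 0.82), EED (-0.85 to 0.54), JARID2 (-0.51 to 0.11), DNMT1 (-0.38 to 0.22), DNMT3A (-0.12 to 0.092), DNMT3B (-0.22 to 0.87), UHRF1 (-0.93 to 0.10) and TET3 (-0.79 to 0.69). EED, at -0.05, became 0.0035 with median-of-ratios factors, 0.0037 with DESeq2, 0.065 with offsets and 0.062 with block and offsets. DNMT3A, at -0.0092, became 0.076 with median-of-ratios factors, 0.076 with DESeq2 and 0.038 in 1 fit of all 8 libraries. EZH1, at 0.00035, became -0.0059 without a filter and -0.0032 with a minimum of 10 counts.

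For the difference between perturbations 10 genes were called, 102 with the replicate block, 48 with offsets, 39 with both and between 1 and 119 without single libraries. SUZ12, at 0.12, became -0.042 under the block. Ranges without single libraries crossed 0 for SUZ12 (-1.30 to 1.22), SOX4 (-1.40 to 0.64), DNMT3A (-0.60 to 0.12), DNMT3B (-1.41 to 0.60), UHRF1 (-0.58 to 0.52), JARID2 (-0.40 to 0.13) and EED (-0.10 to 1.22). A lone library left in a group was assumed to vary like the others.

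Mean levels moved by more than 1 SD without TMM factors for EZH2 in the knockout (21.3 CPM), EZH1 with control siRNA (10.9) and STAT6 siRNA (10.2), SUZ12 in Hep3B (116), EED in the knockout (27.9), JARID2 in Hep3B (41.4), DNMT1 in Hep3B (358), DNMT3A in the knockout (45.2), with control siRNA (81.5) and with STAT6 siRNA (75.8), and TET3 in the knockout (121). Corrected for GC content and length, an alternative for the levels added after seeing the data, they moved for SUZ12 (58.0), EED (15.6), DNMT1 (389) and UHRF1 (127) in Hep3B, DNMT3A with control siRNA (79.2) and STAT6 siRNA (76.0), and TET3 in the knockout (102). The causes were not tested.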
